A study of Mus musculus with 12 samples.

Results

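Liver RNA from 12 mice was hybridised to Affymetrix whole-transcript arrays, and 4 of the 12 arrays carried transcripts of the exocrine pancreas. Those 4, called positive here, were chosen by their own readout: the log2 value of Cpa1, carboxypeptidase A1 of pancreatic juice, lay above 6. The other 8 arrays are called negative. The lowest positive value was 9.44 in wild-type dexamethasone array 3 and the highest negative value was 4.09 in knockout dexamethasone array 2, so any cut between these values gives the same division. The positive arrays were arrays 1 and 2 of wild-type vehicle, array 3 of wild-type dexamethasone and array 3 of knockout vehicle. Of the 3 arrays per group, 2 were thus positive in wild-type vehicle, 1 in wild-type dexamethasone, 1 in knockout vehicle and 0 in knockout dexamethasone.

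All animals were male C57Bl/6 mice, either wild type or with the X-linked Hdac6 gene, a cytoplasmic deacetylase, knocked out (HDAC6 Y/-). They received dexamethasone, a synthetic glucocorticoid, at 1 mg/kg intraperitoneally during 3 weeks, or vehicle, with food always available. Each of the 4 combinations of genotype and treatment was represented by 3 different animals with 1 array each. The livers were dissected out and frozen at once, and neither the ages of the mice nor the days of dissection or hybridisation are given in the sources used here. Hdac6 read 5.86 to 6.43 on the 6 wild-type arrays and 3.62 to 4.40 on the 6 knockout arrays, on a log2 scale, so no array went against its genotype label. Array medians lay between 3.13 and 3.24. A positive array and a negative one differ in the animal as well as in the pancreas signal. In bulk RNA, fewer cells of a type and less RNA per cell cannot be told apart.

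In mice the pancreas is a diffuse gland spread through the mesentery of the duodenum, stomach and spleen, close to the liver. Its acinar cells devote most of their messenger RNA to zymogens and digestive enzymes, which they store in zymogen granules, and its islets make the endocrine hormones. Acinar genes are switched on by the transcription factor complex PTF1, which recognises an E-box next to a second short box written TTTCCC.

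The promoters of 4 of the genes that mark the positive arrays are set beside that of albumin, the main plasma protein of hepatocytes, for contrast. Each window runs from 250 bases before to 50 after the gene's start, 5′ to 3′ on the gene's strand, from RefSeq on build GRCm38.p6: Cpa1 at chr6:30638968-30639267, plus strand, Ctrb1 at chr8:111690961-111691260, minus strand, Cpb1 at chr3:20275684-20275983, minus strand, Cel at chr2:28563354-28563653, minus strand, and Alb at chr5:90460620-90460919, plus strand. Capitals mark a match, on either strand, to CACCTG (an E-box form), TTTCCC or TATAAA. The Alb window holds no match, while the window of the hepatocyte gene Apoa1, not shown, holds a CACCTG match.
Cpa1: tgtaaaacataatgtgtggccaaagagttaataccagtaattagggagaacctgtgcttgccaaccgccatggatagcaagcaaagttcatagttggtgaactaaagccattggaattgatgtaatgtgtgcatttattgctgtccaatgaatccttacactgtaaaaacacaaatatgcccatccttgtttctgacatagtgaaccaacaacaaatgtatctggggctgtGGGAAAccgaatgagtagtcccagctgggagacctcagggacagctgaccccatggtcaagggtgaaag
Ctrb1: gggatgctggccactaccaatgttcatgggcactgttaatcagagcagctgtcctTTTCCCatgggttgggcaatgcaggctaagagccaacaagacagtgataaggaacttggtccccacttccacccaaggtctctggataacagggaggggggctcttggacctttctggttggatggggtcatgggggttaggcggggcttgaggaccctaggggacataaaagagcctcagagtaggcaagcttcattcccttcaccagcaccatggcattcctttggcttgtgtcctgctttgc
Cpb1: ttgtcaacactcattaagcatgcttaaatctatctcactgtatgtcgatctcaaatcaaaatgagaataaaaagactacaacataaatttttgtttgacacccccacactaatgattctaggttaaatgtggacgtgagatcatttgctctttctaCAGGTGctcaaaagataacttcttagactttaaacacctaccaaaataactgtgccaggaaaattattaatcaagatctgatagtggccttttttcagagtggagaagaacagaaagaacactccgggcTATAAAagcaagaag
Cel: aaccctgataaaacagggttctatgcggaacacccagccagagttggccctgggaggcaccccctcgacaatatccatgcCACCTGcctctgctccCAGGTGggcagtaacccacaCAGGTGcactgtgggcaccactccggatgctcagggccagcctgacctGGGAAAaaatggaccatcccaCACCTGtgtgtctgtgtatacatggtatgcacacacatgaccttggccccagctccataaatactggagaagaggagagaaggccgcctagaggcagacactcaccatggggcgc
Alb: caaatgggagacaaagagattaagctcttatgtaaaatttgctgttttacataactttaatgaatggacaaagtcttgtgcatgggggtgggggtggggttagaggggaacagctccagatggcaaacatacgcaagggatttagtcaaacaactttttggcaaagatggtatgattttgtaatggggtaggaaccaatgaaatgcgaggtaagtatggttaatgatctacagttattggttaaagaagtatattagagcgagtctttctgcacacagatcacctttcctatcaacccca

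Of the 26 genes that proved higher in the positive arrays, 20 had such a window of 300 bases in the RefSeq table. CACCTG was present in 11 of the 20 (55%), against 20.2% of the 32851 windows in the table and 25% of 64 windows of hepatocyte genes. TATAAA was present in 7 (35%), against 13.6% of all windows, and TTTCCC in 7 (35%), against 25.2%. Cel and Cela1 held CACCTG and TTTCCC with a gap of at most 30 bases, as did 1.12% of all windows. These matches describe letters in the windows and not bound sites.

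The 5 acinar markers were high on the same 4 arrays. Cpa1 read 11.64 and 11.21 in wild-type vehicle 1 and 2, 9.44 in wild-type dexamethasone 3 and 10.72 in knockout vehicle 3, against 2.95, 3.17 and 4.09 (lowest, median, highest) in the 8 negative arrays. Cpb1, carboxypeptidase B1, read 11.15, 10.63, 9.12 and 10.04 in the same 4 arrays in that order, against 2.32, 2.53 and 2.78. Ctrb1, chymotrypsinogen B1, read 11.10, 11.15, 9.52 and 10.15, against 3.28, 3.47 and 4.65. In each of these 3 genes the positive and negative arrays were separated by a gap of more than 4 log2 units, and wild-type dexamethasone 3 was the lowest positive array. Cel, the bile-salt-stimulated lipase, read 10.13, 9.91, 7.81 and 8.98 in the positive arrays, against 2.44, 2.59 and 2.92. Clps, the cofactor of pancreatic lipase, read 10.10, 9.76, 7.91 and 8.75, against 3.95, 4.23 and 4.49. Neither overlapped between the kinds, and wild-type vehicle 1 was highest and wild-type dexamethasone 3 lowest of the positive arrays in both. Adjusted for the 4 groups, the log2 difference was 7.46 ± 0.24 for Cpb1, 7.43 ± 0.32 for Cpa1, 6.82 ± 0.30 for Ctrb1, 6.35 ± 0.28 for Cel and 4.61 ± 0.27 for Clps (SE, 4 positive and 8 negative arrays). These correspond to 176-fold, 172-fold, 113-fold, 81.3-fold and 24.4-fold.

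**Figure D1:**
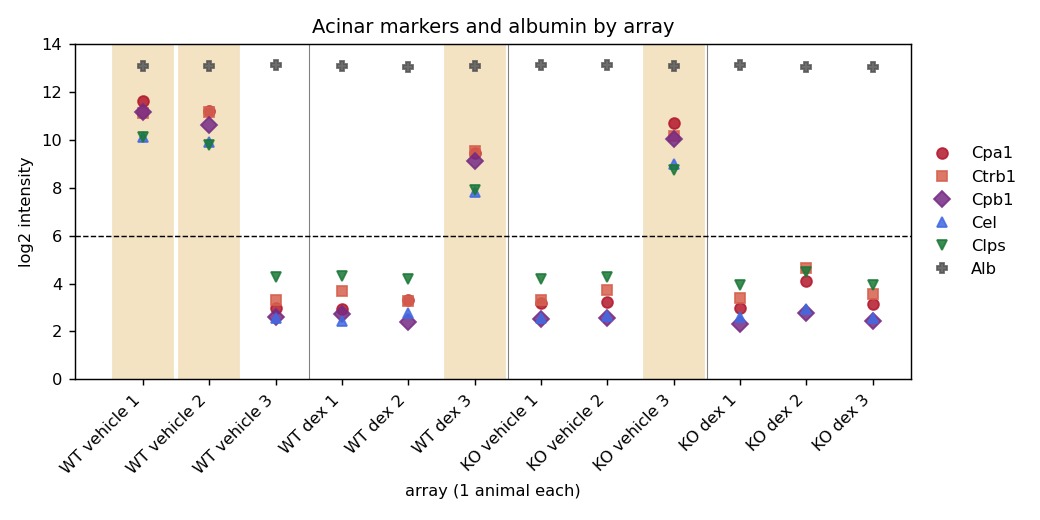
Log2 intensity of 5 acinar markers and of albumin (vertical axis) on each of the 12 arrays (horizontal axis, 1 animal each); shaded columns are the positive arrays and the dashed line is the Cpa1 cut of 6. The markers separate the 4 shaded arrays from the other 8, while albumin stays between 13.03 and 13.13 on every array.

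Over the whole table, 26 of 17904 genes (0.145%) were higher in the positive arrays and 0 (0%) were lower, by a limma model with the 4 groups as covariates and an adjusted p under 0.05. At an unadjusted p under 0.05 the counts were 484 and 381. Because the arrays were divided by a pancreas transcript read on the same arrays, these calls order genes by how closely they follow Cpa1; they are no independent test, and no p is given for pancreas genes. The 26 log2 differences ran from 1.92 to 7.46 with a median of 4.77, which is 3.78-fold to 176-fold. All 4 positive arrays lay above all 8 negative ones in 89 genes (0.497%), the 26 included, and below them in 40 (0.223%). Of the 63 further genes that lay above, 2 had a difference over 1: Serpini2 (1.41) and Prss3 (1.24). Among the 40 that lay below, the difference of largest size was -0.39, in Socs6, a suppressor of cytokine signalling named after its values were seen.

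**Figure D2:**
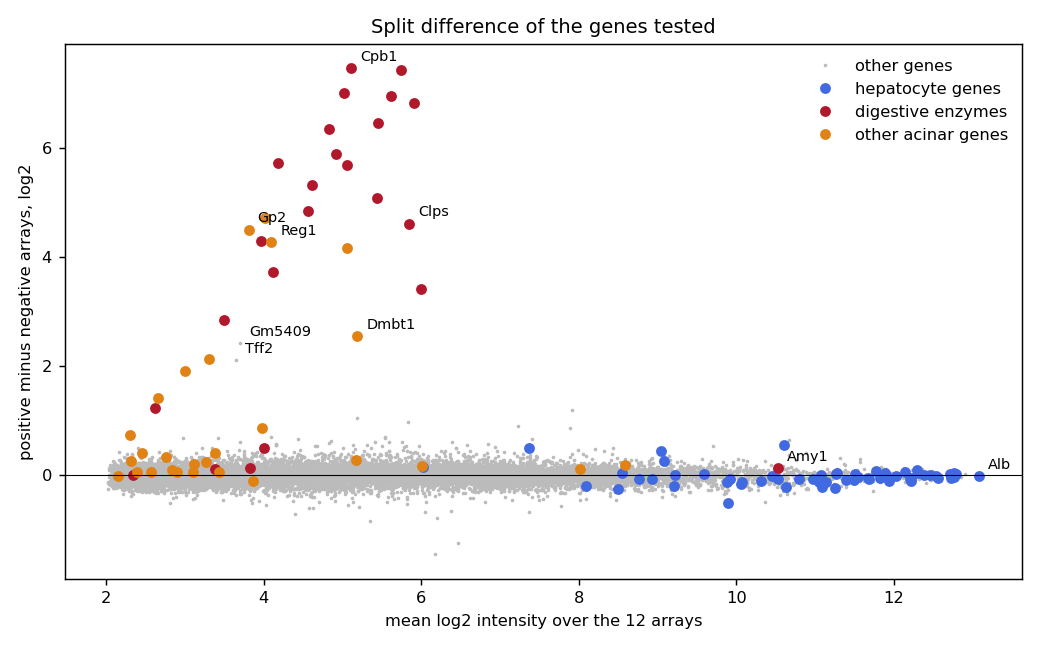
Positive minus negative arrays on the log2 scale, adjusted for group (vertical axis), against the mean log2 intensity over the 12 arrays (horizontal axis), for 17904 genes; colours mark digestive enzymes, other acinar genes and hepatocyte genes. The digestive enzymes reach 7.46 while hepatocyte genes lie between -0.51 and 0.56.

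Digestive enzymes made up 18 of the 26. The list of enzymes held 33 genes, of which 25 had a probe set with 1 gene symbol and 24 passed the filter on low values, a filter that a gene can pass through the positive arrays alone. Beside the 5 markers, the trypsinogens Try5 (6.95 ± 0.19), Try10 (5.32 ± 0.23), Prss2 (4.83 ± 0.28) and Try4 (2.85 ± 0.27) were higher, as log2 difference ± SE, and 2210010C04Rik was 128-fold higher. These genes are near-identical copies whose probes may share transcripts, so the value of each is uncertain. The elastases Cela3b (5.68 ± 0.28), Cela2a (5.09 ± 0.25) and Cela1 (3.41 ± 0.24), related genes whose probes were not checked for shared transcripts, were also higher. So were chymotrypsin-like Ctrl (6.45 ± 0.33), ribonuclease Rnase1 (5.88 ± 0.29), the lipase-related Pnliprp1 (5.72 ± 0.28) and Pnliprp2 (4.29 ± 0.32), and phospholipase Pla2g1b (3.73 ± 0.37). Cela1 read 4.33 to 5.11 in the negative arrays and 7.43 to 9.33 in the positive ones. The elastase Cela3a was not called: it read 4.07 to 5.01 in the positive arrays and 3.53 to 4.10 in the negative ones, with overlap and a difference of 0.50 ± 0.15. The median of the 24 enzymes tested was 4.96, against -0.00332 for all 17904 genes; the choice of arrays fixes its direction.

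Beyond the enzymes, 6 genes of the acinar secretory granule and its machinery were higher, out of 28 tested in a list of 32. Zg16, a lectin of the zymogen granule that goblet cells also make, read 8.04 and 8.41 in wild-type vehicle 1 and 2, 5.97 in wild-type dexamethasone 3 and 6.91 in knockout vehicle 3, against 2.17, 2.39 and 2.51 (lowest, median, highest) in the negative arrays. Gp2, the major glycoprotein of the granule membrane, read 7.86, 7.41, 6.59 and 5.95, against 2.00, 2.21 and 2.51. Reg1, a secreted lectin-like protein of pancreatic juice, read 8.37, 8.86, 5.29 and 6.37, against 2.40, 2.51 and 2.73. The 2 kinds of array did not overlap in any of the 3, and Gp2 was the one with its lowest positive value in knockout vehicle 3. Their log2 differences were 4.71 ± 0.31, 4.50 ± 0.22 and 4.28 ± 0.41 (SE). Syncollin (Sycn), a protein of the inner granule membrane, differed by 4.16 ± 0.30, Cuzd1, a zymogen granule membrane protein, by 2.13 ± 0.29, and Pdia2, the pancreatic protein disulfide isomerase, by 1.92 ± 0.28. Cuzd1 lost its call without wild-type vehicle 3 (1.65) and Pdia2 without knockout vehicle 3 (1.98); both lost it when the variance was moderated robustly with a trend, and Pdia2 also under 2 other choices of covariates and arrays.

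Only 2 of the 26 genes belonged to neither list. Tff2, a trefoil peptide of gastric mucous neck cells that is also known from pancreas, read 6.10 and 6.13 in wild-type vehicle 1 and 2, 4.13 in wild-type dexamethasone 3 and 4.58 in knockout vehicle 3. In the negative arrays it read 2.69, 2.83 and 3.15 (lowest, median, highest), so the 2 kinds of array did not overlap. Its level was 4.30-fold higher (95% interval of the log2 difference 1.52 to 2.69), with a limma adjusted p of 0.00284 that ranks it and does not test it independently. The predicted gene Gm5409, which falls outside the naming rule and was singled out after its values were seen, read 5.40, 6.33, 4.92 and 4.80 in the positive arrays, against 2.68, 2.84 and 3.24. It too showed no overlap, and its difference was 2.42 ± 0.22. Whether it belongs to the family of a listed enzyme, or its probes share transcripts with one, was not checked. Absence from the lists thus does not place it outside the digestive enzymes. Of 11 stomach genes tested, 0 were called, which at 0.145% of all genes higher says little by itself, and their median was -0.07, among them Cblif, gastric intrinsic factor (-0.13 ± 0.10), and Tff1, the trefoil peptide of surface mucous cells (-0.20 ± 0.12).

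The next 9 genes in order of p outside the pancreas lists missed the threshold. Gpat3, a glycerol-3-phosphate acyltransferase, differed by 1.06 ± 0.19 with a limma adjusted p of 0.0587, and the kinds overlapped: it read 4.75, 4.98, 7.01 and 5.58 in the positive arrays, against 4.19, 4.97 and 5.72. It was highest in wild-type dexamethasone 3, the positive array with the weakest acinar signal. Under 5 of 22 alternatives Gpat3 passed the threshold, at adjusted p 0.0203 to 0.0479 by limma. Jun, an AP-1 transcription factor subunit, differed by 0.61 ± 0.12 (adjusted p 0.109) and Trim32, a ubiquitin ligase, by 0.54 ± 0.10 (adjusted p 0.121). Their positive arrays also overlapped the negative ones. Klk1b5, a glandular kallikrein of a family of near-identical genes, read 3.66, 3.86, 3.09 and 3.37, against 2.32, 2.73 and 2.97. The guidance receptor Robo1 read 6.35, 6.12, 5.73 and 6.08, against 4.88, 5.38 and 5.70. In both the kinds were just apart, with differences of 0.69 ± 0.15 and 0.61 ± 0.13 and adjusted p of 0.306 and 0.342 by limma. The 4 others of these 9 were Ift81, Trib2, Pdrg1 and Dusp14, with differences of 0.36 to 0.57. In the same fit, dexamethasone minus vehicle was 2.31 in wild type and 2.82 in knockout for Dusp14, and 1.71 and 0.61 for Gpat3. It was 0.58 and 0.38 for Trib2, -0.23 and -0.17 for Ift81 and -0.43 and -0.16 for Pdrg1.

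Other genes counted as pancreatic were not called. Amy1, the amylase that salivary gland and liver make, read 10.47, 10.22, 10.92 and 10.46 in the positive arrays and 10.17, 10.56 and 11.03 (lowest, median, highest) in the negative ones, a difference of 0.14 ± 0.11. Ctrc, chymotrypsin C, differed by 0.11 ± 0.11, Dnase1 by 0.00 ± 0.08 and Gm5771 by 0.13 ± 0.14, all with overlap. Prss3, a trypsinogen, read 3.37, 2.94, 4.87 and 2.50, against 1.98, 2.22 and 2.34, so it was highest in wild-type dexamethasone 3, where Try5, Try10 and Prss2 were lowest among the positive arrays. Serpini2, a serpin of the pancreas, read 5.08, 4.20, 2.53 and 3.32, against 1.97, 2.08 and 2.17. Both separated the kinds of array without being called; Serpini2 was called without wild-type dexamethasone 3 (1.91), under the replicate block and with Cpa1 as a continuous term. Dmbt1, a secreted scavenger glycoprotein, read 8.34, 7.86, 5.45 and 6.93, against 2.63, 3.76 and 8.12, where the highest negative value was that of wild-type dexamethasone 2. It was called only without that array (3.48, against 2.55 ± 0.94 with it). Prss1, Pnlip, Klk1, Amy2a5, Amy2a2, Amy2b and Prss3b had no probe set with a single symbol, and Tmprss15, Reg2, Reg3b and Reg3g stayed below the filter.

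The regulators of the acinar cell were not called, and their arrays overlapped. Ptf1a, the pancreas-specific subunit of PTF1, read 2.50 to 2.66 in the positive arrays and 2.39 to 2.64 in the negative ones. Rbpjl, its partner subunit, read 2.79 to 3.29 and 2.60 to 2.97, and Bhlha15 (Mist1), which drives secretory maturation, 2.73 to 2.97 and 2.41 to 3.20. Their differences were 0.06 ± 0.08, 0.07 ± 0.11 and 0.10 ± 0.16. Every Ptf1a reading lay under the lowest array median of 3.13, and no Rbpjl or Bhlha15 reading exceeded 3.29. At such low readings the absence of a difference says little about Ptf1a, Rbpjl and Bhlha15. Nr5a2, a nuclear receptor active in both liver and acinar cells, differed by 0.11 ± 0.10 and Gata4 by 0.16 ± 0.17. Spink1, the trypsin inhibitor of pancreatic juice, read 3.62 and 3.77 in wild-type vehicle 1 and 2, but 2.37 and 2.23 in wild-type dexamethasone 3 and knockout vehicle 3, against 1.84, 1.94 and 2.13 in the negative arrays. Nupr1, a stress-response protein, read 5.42 and 5.37 in the same pair of vehicle arrays and 3.82 and 4.15 in the others, against 3.30, 3.58 and 3.96. Cckar, the cholecystokinin receptor, read 3.64 and 3.36, then 2.49 and 2.77, against 2.41, 2.61 and 2.73. In these 3 genes the wild-type vehicle arrays stood clear of the rest, while wild-type dexamethasone 3 and knockout vehicle 3 lay inside or close to the negative range.

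The 4 positive arrays differed among themselves in a nearly common order. Relative to wild-type vehicle 1, the median log2 offset over the 26 genes was -0.20 in wild-type vehicle 2, -1.32 in knockout vehicle 3 and -2.09 in wild-type dexamethasone 3. On the linear scale, after subtracting the median negative array, the signal was 87.2%, 39.2% and 21.6% of that in wild-type vehicle 1 (median over the genes). Both wild-type vehicle arrays lay above knockout vehicle 3, and that above wild-type dexamethasone 3, in 23 of 26 genes. The exceptions were Gp2, Try4 and Gm5409, which were lowest in knockout vehicle 3. Wild-type vehicle 1 was highest for 18 genes and wild-type vehicle 2 for 8. The range over the 4 arrays was 1.33 to 3.57 per gene with a median of 2.23. Reg1 lay at -3.08 in wild-type dexamethasone 3, the lowest offset there, yet at 0.49 in wild-type vehicle 2. Cuzd1 lay at -1.22 in wild-type vehicle 2, the lowest offset in that array. Each of these arrays is a single animal, so the order describes these libraries and has no test.

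**Figure D3:**
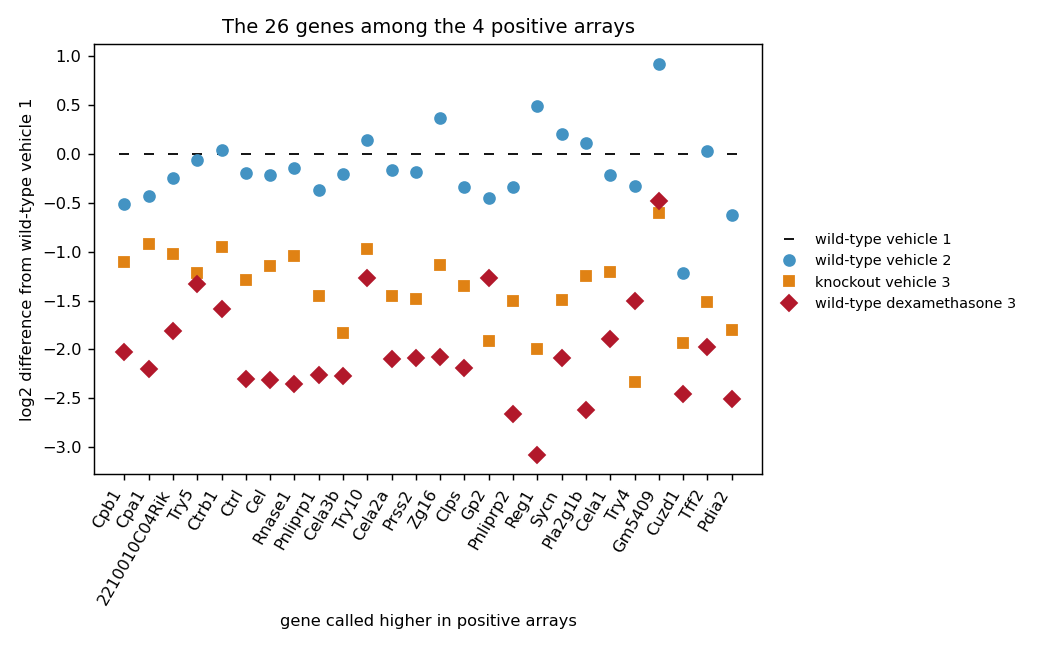
Log2 difference from wild-type vehicle 1 (vertical axis) of the 26 genes (horizontal axis, ordered by their positive minus negative difference) in the 4 positive arrays. The squares of knockout vehicle 3 lie above the diamonds of wild-type dexamethasone 3 in 23 of 26 genes, with Gp2, Try4 and Gm5409 the other way round.

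The negative arrays were not all alike for these genes. Knockout dexamethasone 2 held the highest negative value for 14 of the 26, and its median difference from the mean of the other negative arrays was 0.23, above that mean in 22 genes. For the other 7 negative arrays that median lay between -0.08 and 0.06. It stood more than 0.5 above every other negative array in 5 genes, the trypsinogens Try5 (3.96), Try10 (3.54) and 2210010C04Rik (3.42) together with Cpa1 (4.09) and Ctrb1 (4.65). Even so, its Cpa1 value was 5.35 below that of the weakest positive array. In the negative arrays 13 of the 26 genes lay under the array's median on all 8 arrays.

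The label of liver held on every array. Alb read 13.07, 13.10, 13.10 and 13.07 in the positive arrays and 13.03, 13.10 and 13.13 (lowest, median, highest) in the negative ones. Transthyretin (Ttr) read 12.71 to 12.77 and 12.67 to 12.80, and apolipoprotein A1 (Apoa1) 12.67 to 12.75 and 12.69 to 12.88. The kinds overlapped in all 3, with differences of -0.01 ± 0.07, 0.02 ± 0.07 and -0.03 ± 0.07 (SE). Of 60 hepatocyte genes tested, 0 were called, against 0.145% of all genes higher and 0% lower, and their median difference was -0.04. For 50 of the 60 (83.3%) the 95% interval lay within 0.5 of no difference, against 91.5% of all genes. For 56 (93.3%) it lay within 1, against 99.4% of all genes. Fibrinogen beta (Fgb, -0.07 ± 0.08), the urea cycle enzyme Cps1 (-0.04 ± 0.09), Cyp3a11 (0.01 ± 0.09) and the transcription factor Hnf4a (-0.13 ± 0.09) were among these. The widest interval among the liver genes always named belonged to Cyp7a1, the rate-limiting enzyme of bile acid synthesis, at 0.01 ± 0.46 with an upper bound of 1.02, so a difference of that size was not detectable. G6pc, glucose-6-phosphatase, differed by -0.51 ± 0.25, with 8.36 in wild-type vehicle 2 and 9.48 to 10.43 in the negative arrays. Hepcidin (Hamp) differed by 0.56 ± 0.26. Of 34 complement and coagulation genes and 36 cytochrome P450 genes, 0 were called, with medians of -0.07 and 0.01.

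In no list of another cell type was more than 1 gene called, which at 0.145% of all genes higher says little by itself. The 25 islet genes tested had a median difference of -0.03 and 0 calls. Ins2, insulin 2, read 3.54 and 3.25 in wild-type vehicle 1 and 2, 2.59 in wild-type dexamethasone 3 and 2.62 in knockout vehicle 3, against 2.57, 2.67 and 2.78 in the negative arrays. Iapp, amylin of the same cells, read 2.94, 2.75, 2.15 and 2.28, against 1.96, 2.20 and 2.35. In both hormones the pair of wild-type vehicle arrays lay above the rest, and the remaining positive arrays lay inside the negative range. Every Iapp reading lay under the lowest array median of 3.13. These were the 2 of 25 islet genes (8%) with the pair above all other arrays, against 3.36% of all genes, and 1 lay below. Over the list, 10 differences were positive and 15 negative. Glucagon (Gcg), at most 2.19 in the positive arrays and 2.46 in the negative ones, and somatostatin (Sst, -0.10 ± 0.10) showed no such pair. The duct markers Krt19 (0.12 ± 0.20), Krt7 (-0.06 ± 0.14), Sox9 (-0.23 ± 0.12) and Cftr (0.03 ± 0.08) overlapped, and the 14 duct genes had a median of -0.02. Among 19 intestine genes, 1 was called, Zg16, which the acinar list also holds; their median was -0.06. Medians were 0.05 over 18 B and plasma cell genes, 0.03 over 18 T and NK cell genes and 0.03 over 8 genes of spleen and lymph node stroma, each with 0 calls. The B and plasma cell mean was 3.17 and 3.09 in wild-type vehicle 1 and 2. It was 2.84 in wild-type dexamethasone 3, 3.01 in knockout vehicle 3 and 2.81 to 3.04 in the negative arrays. The stroma mean was 3.22 to 3.84 in the positive and 3.09 to 3.35 in the negative arrays. For T and NK cells it was 2.67 to 2.74 and 2.62 to 2.77. The 15 adipocyte genes had a median of 0.11 and 0 calls; Adipoq, adiponectin, read 2.84 and 2.76 in wild-type vehicle 1 and 2 and 2.21 and 2.37 in the other positive arrays, against 1.98 to 2.31.

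For genes of the general secretory route the size of the differences says more than the calls, which were 0.145% over all genes. Of 56 genes for ER chaperones and secretory transport, 0 were called and their median was -0.02. All 56 intervals lay within 1 log2 unit, as did 99.4% of those over all genes. For 24 genes of translation and amino acid supply the count was 0 and the median -0.01. Sec11c, a signal peptidase subunit, differed by 0.27 ± 0.11 and Ero1b, an ER oxidase of secretory cells, by -0.19 ± 0.09, with overlap in both. Gatm, which makes the creatine precursor and is abundant in pancreas, differed by 0.28 ± 0.22, and it read 5.72 to 6.32 on all 6 vehicle arrays against 3.32 to 5.57 on the dexamethasone arrays.

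**Figure D4:**
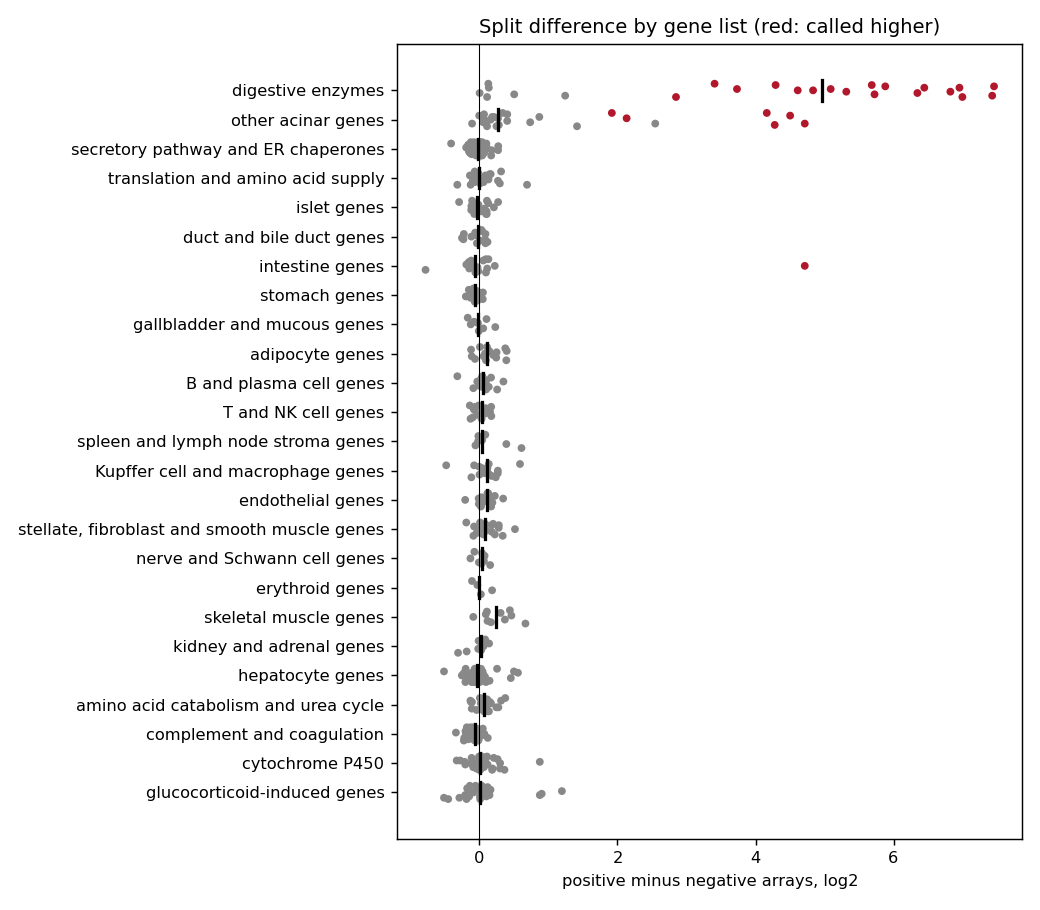
Positive minus negative arrays on the log2 scale (horizontal axis) for each gene tested (points) in 25 lists (vertical axis), with the median of each list as a bar and genes called higher in red. Only the digestive enzymes and the other acinar genes hold several red points; the single one among intestine genes is Zg16.

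Wild-type vehicle 1 and 2 stood above the other positive arrays in further transcripts. In 33 genes both lay more than 0.5 above every one of the other 10 arrays, and 24 of these were among the 26. The other 9 were Spink1, Nupr1, Serpini2 and Cckar of the acinar list, the skeletal muscle genes Ckm, Tnnt3 and Myh1, and Serpinb1a and Prex1, named after their values were seen. Acta1, skeletal muscle actin, read 6.41 and 5.39 in these arrays, 4.01 in wild-type dexamethasone 3 and 4.11 in knockout vehicle 3, against 3.87 to 4.90 in the negative arrays. Ckm, muscle creatine kinase, read 4.78 and 4.59, then 3.71 and 3.02, against 3.16 to 3.59. Mb, myoglobin, read 4.49 and 4.12, then 3.49 and 3.42, against 3.20 to 3.70. Both wild-type vehicle arrays exceeded all other arrays in each of the 3. The mean of the 10 muscle genes was 3.98 and 3.71 in wild-type vehicle 1 and 2, 3.14 and 2.99 in the other positive arrays and 3.00 to 3.26 in the negative ones, with the top of that range in knockout dexamethasone 2. The muscle list had 0 calls and a median of 0.24; the part of this signal in the acinar result was not tested.

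Whether the split difference depended on treatment rested on a single positive dexamethasone array. By limma, 0 of 17904 genes were called for that dependence, and 892 had an unadjusted p under 0.05. Leaving out knockout vehicle 3 raised the count to 12. Of the genes named by the rule, the pancreas genes Prss3 and Rnase1 came first in order of p, which is no independent test. Treatment and the amount of acinar transcripts on wild-type dexamethasone 3 cannot be told apart in it. The split difference of Prss3 was 0.57 under vehicle and 2.60 under dexamethasone, and that of Rnase1 went the other way, 6.52 and 4.59.

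Because the positive arrays were spread unevenly over the groups, the group means of acinar genes differed with large spreads. Cpa1 averaged 8.60 ± 4.89 in wild-type vehicle, 5.23 ± 3.65 in wild-type dexamethasone, 5.71 ± 4.34 in knockout vehicle and 3.41 ± 0.59 in knockout dexamethasone (SD, n = 3). The median difference of the 26 genes was -2.64 for dexamethasone minus vehicle in wild type, -1.45 in knockout, -2.41 for knockout minus wild type under vehicle and -1.33 under dexamethasone. Of the 26, 0 were called in any of the 4 comparisons; their median SE was 1.56, against 0.116 for the other genes. With the split as a term, these medians were -1.02, 0.18, -0.78 and 0.38, and the median SE was 0.335. In wild type, Try5 (-0.80 ± 0.23), Reg1 (-1.70 ± 0.49) and Cela1 (-1.07 ± 0.29) then passed the threshold for dexamethasone minus vehicle. With a term read from Cpa1 on the same arrays, this is no independent test of dexamethasone. The single positive dexamethasone array lay below wild-type vehicle 1 in all 26 genes, and the term gives every positive array the same weight. Treatment and the amount of acinar transcripts on that array thus cannot be told apart here.

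**Figure D5:**
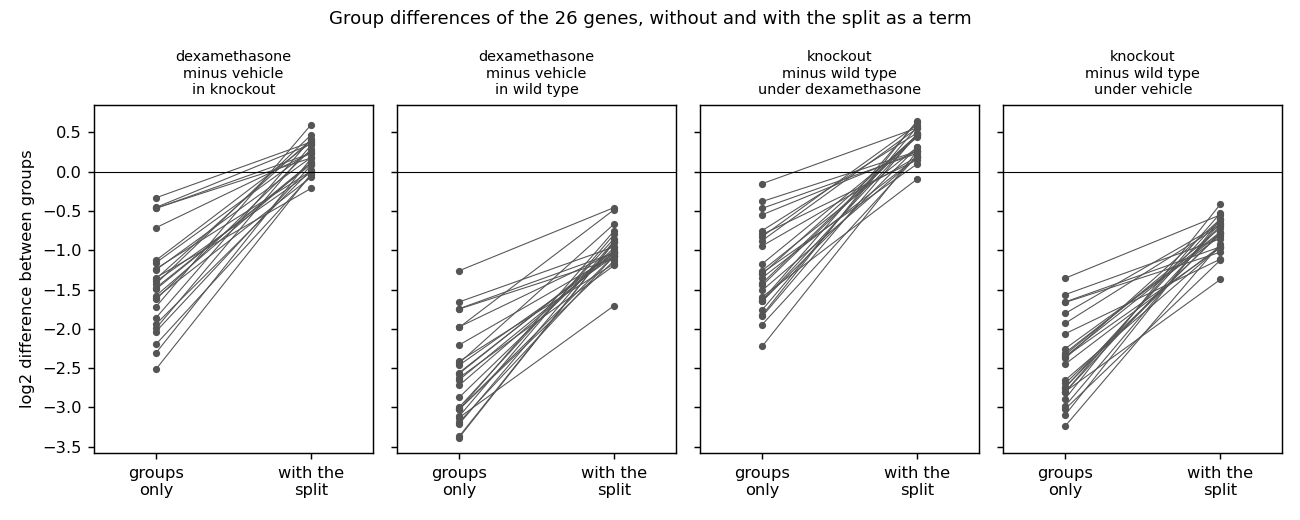
Log2 difference between groups (vertical axis) of the 26 genes in the 4 group comparisons (panels), from the fit with the groups only and from the fit with the split as a term (horizontal axis); each line is 1 gene. The medians move from -2.64 to -1.02 for dexamethasone in wild type and from -1.45 to 0.18 in knockout.

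For the table as a whole, the split term left most dexamethasone calls in place and reduced the few genotype calls. Dexamethasone minus vehicle in wild type gave 2064 calls (11.5% of genes tested) without the term and 1773 (9.90%) with it, 1696 of them shared. In knockout the counts were 1485 (8.29%) and 1320 (7.37%), with 1260 shared. Knockout minus wild type gave 18 (0.101%) and 7 (0.0391%) under vehicle, with 7 shared, and 5 (0.0279%) and 2 (0.0112%) under dexamethasone, with 2 shared. Leaving out 1 array at a time moved the genotype counts without the term to between 5 (without wild-type vehicle 2) and 28 (without wild-type vehicle 1) under vehicle, and to between 1 (without knockout dexamethasone 2) and 37 (without knockout dexamethasone 3) under dexamethasone. None of the calls made without the term belonged to the 26 genes, and 0 of them changed sign. For genes outside the 26, the term moved the differences by a median size of 0.0247, and by over 0.5 in 1 gene. Their median SE rose from 0.116 to 0.120. The 4 comparisons share groups, so their counts are not independent of each other.

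Probe sets without a single gene symbol are not named here. Of 1062 tested with several symbols, 5 were higher and 0 lower in the positive arrays; of 9497 with no symbol, 4 were higher and 1 lower. Their called log2 differences reached 6.93 and 6.66. Of 1505 further probe sets of genes already represented, 0 were called.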

How the data were processed

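The study measured liver RNA of 12 mice, 3 per group, on 1 array each. The authors deposited log2 intensities per probe set. The submitters' processing notes name R 2.10.0 and affy; for background correction and normalisation, no method is given in the sources used here. The number of arrays limits the precision. Of 34760 deposited probe sets, 21640 carried 1 gene symbol, and the one with the highest mean stood for each of 19937 genes. Genes above the 20th percentile of an array in at least 3 arrays were kept (17904).

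Arrays were divided at a Cpa1 value of 6. The positive minus negative difference was the split term of a limma 3.58.1 model in R 4.3.3 with the 4 groups as covariates (7 residual degrees of freedom, empirical Bayes, Benjamini-Hochberg adjustment, threshold 0.05). A second model tested the dependence of that term on treatment, and the 4 group comparisons were fitted with and without it. The replicates are different animals per the labels. On data simulated for this split over 17904 genes, 72.0% of genes changed by 0.5 on the log2 scale and 99.8% of those changed by 1 were recovered. Each of the 10 simulations changed 200 genes and drew normal noise, so its cut was less strict than with the 26 calls here. Genes of larger spread, such as Serpini2 and Mfsd2a, differed by more than 1 in the data and were not called. The rates thus do not tell how many such genes were missed.

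The members and gene lists were chosen with earlier results of these data known. Named were all members of the digestive enzyme, other acinar and islet lists, the 10 genes of smallest p outside them, up to 4 of smallest p per list and 10 fixed liver genes; exceptions are marked, and 1 list member is not reported here. Other filters, scalings, covariates, variance moderation, a replicate block and leaving out each array were tried. Promoter letters came from a RefSeq table and were searched for 3 motifs on both strands.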

Additional observations from a re-analysis of the deposited data

Results flagged for a closer look

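Values standing far from the rest of their group were sought in 53 genes, in the positive and in the negative arrays apart. This makes 106 groups of values. A rate of about 1 in 20, or 5.3, would hold only for independent genes chosen without regard to their values. The 53 were the 26 and others picked with earlier results known, so no excess is read from the count. There were 8 such values, 6 of them in knockout dexamethasone 2, and their causes were not tested. In that array Cpa1 read 4.09, where the next highest negative array read 3.31, Ctrb1 4.65 (next 3.71), 2210010C04Rik 3.42 (next 2.66) and Try10 3.54 (next 2.79). The same array read 4.90 for the muscle actin Acta1 (next 4.29) and 3.70 for myoglobin, Mb (next 3.42). Dmbt1 read 8.12 in wild-type dexamethasone 2, where the next highest negative array read 4.80. Pdia2 read 1.94 in knockout vehicle 1, below the next lowest at 2.22.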

How the results depend on the processing

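Under 22 alternatives the split fit gave 25 to 30 genes higher and 0 lower; 24 of the 26 genes passed in every one, and 0 named values that passed in either fit changed sign. Cuzd1 and Pdia2 were the exceptions, and 6 further named genes (Dmbt1, Dusp14, Gpat3, Klk1b5, Serpini2 and Spink1) passed in at least 1 alternative. Without the group covariate the median of B and plasma cell genes was 0.10. Leaving out 1 array at a time, the median of digestive enzymes ranged from 4.39 to 5.41, of other acinar genes from 0.15 to 0.44, of hepatocyte genes from -0.06 to -0.03, of islet genes from -0.06 to 0.01 and of B and plasma cell genes from 0.02 to 0.08. The count of genes whose split difference depended on treatment was 1 with robust trended moderation and 0 to 12 over 11 left-out arrays, 12 being without knockout vehicle 3; it could not be fitted without wild-type dexamethasone 3. Knockout minus wild type under dexamethasone gave 3 calls without the filter, 2 with all 1-symbol probe sets, 2 with the split as a covariate and 1 to 37 with an array left out. Under vehicle it gave 7 with the split as a covariate and 5 to 28 with an array left out, among them 8 without knockout vehicle 3 and 10 without knockout vehicle 2 or knockout dexamethasone 2. The wild-type and knockout dexamethasone counts ranged from 1418 to 2166 and from 992 to 1603 in the same way. The replicate numbers were not treated as pairs in the main fit. Deviations of same-numbered arrays correlated between -0.54 and 0.36, which cannot settle whether equal numbers share a day of handling. The replicate block gave 30 genes higher (with Serpini2, Spink1, Klk1b5 and 1810046K07Rik added) and 3 calls for knockout minus wild type under dexamethasone. The causes of these shifts were not tested. With 4 positive arrays, 1 of them under dexamethasone and 0 in the knockout dexamethasone group, the precision differed between genes, and the deposited values give no measure of signal over background.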

Other observations

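Beyond pancreas and muscle, wild-type vehicle 1 and 2 both lay above all other arrays in 6 of 22 stellate, fibroblast and smooth muscle genes (27.3%), against 3.36% of all genes tested. The mean of these 22 genes was 5.51 and 5.16 in this pair and 4.74 to 5.13 in the negative arrays. The share was also raised for amino acid catabolism and the urea cycle (5 of 29, 17.2%), but the list's mean, 10.41 and 10.37, lay inside the negative range of 10.07 to 10.42. It was 16.7% of 18 Kupffer cell and macrophage genes, 12.5% of 16 endothelial genes, 12.5% of 8 gallbladder and mucous genes and 11.1% of 18 B and plasma cell genes. Both lay below all other arrays in 3 of 29 glucocorticoid-induced genes (10.3%), 3 of 34 complement and coagulation genes (8.82%) and 3 of 36 cytochrome P450 genes (8.33%), against 2.39% of all genes. These shares rest on few genes each and have no test. Rgs5, a pericyte regulator of G-protein signalling, read 7.31 and 7.69 in these arrays, 7.10 in wild-type dexamethasone 3 and 6.88 in knockout vehicle 3, against 6.55 to 7.07 in the negative arrays. Its split difference was 0.51 ± 0.12 (SE) with a limma adjusted p of 0.421. In 3 genes both lay more than 0.5 below every other array. One was Cd163, the haptoglobin scavenger receptor of macrophages, at 5.24 and 5.85 against 6.40 to 7.99 elsewhere. The others, named after their values were seen, were Adgrf1, an adhesion G-protein-coupled receptor, at 5.83 and 4.64, and Saa2, an acute-phase apolipoprotein, at 5.12 and 5.52. These arrays are 2 of the 3 in their group, so what they share with each other and what they share as untreated wild-type livers cannot be told apart.

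Intestinal trefoil factor Tff3 read 4.40 and 5.06 in wild-type vehicle 1 and 2, 7.14 in wild-type dexamethasone 3 and 4.08 in knockout vehicle 3, against 5.19, 7.13 and 8.55 (lowest, median, highest) in the negative arrays. Its split difference was -0.78 ± 0.26, with a limma adjusted p of 0.968, and its highest values were on dexamethasone arrays. The glucocorticoid-induced transporter Mfsd2a differed by 1.19 ± 0.35 (adjusted p 0.933), with 6.84, 7.68, 10.12 and 6.15 in the positive arrays; among vehicle arrays the positive ones read 6.15 to 7.68 and the negative ones 3.76 to 5.33.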
